A study of Mus musculus with 27 samples.

Results

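The 12 h to 24 h step of reperfusion was examined in the cortex on the side of a stroke, by comparing 3 libraries taken at 24 h with 3 taken at 12 h across all genes. These 6 libraries were chosen by their labels alone out of 27 in the series. Wild-type C57BL6 mice aged 7 to 8 weeks had the right middle cerebral artery blocked with a suture for 35 min, after which flow was restored and the ipsilateral (right) or contralateral (left) cortex was dissected. An operation counted as successful when residual flow was under 15% and recovered above 80% within 10 min. Both compared groups had the occlusion and differed in reperfusion time. The 6 contralateral libraries at the same times are the reference for the elapsed hours, and 3 libraries of mice with exposed arteries and no filament are the sham level. Each replicate number stands for 1 day of surgery. Whether a library holds 1 animal, and whether both hemispheres of a number come from 1 animal, is not given in the sources used here.

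After a stroke, dying cells release signals that activate microglia and astrocytes, and white blood cells then enter from the blood. Astrocytes become reactive through receptors of the interleukin 6 family and the transcription factor STAT3, while type I interferon drives a separate antiviral gene programme. Heat shock chaperones, which refold damaged proteins, are induced early in injured neurons. In bulk tissue, fewer cells of a type and less RNA per cell cannot be told apart.

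The 6 libraries held 33256273 to 47918213 counts each, and all 27 held 26505996 to 48830897. Values are CPM, counts scaled to a common library total with a correction for library composition. The replicates of 12 h did not form a tight group: on the first principal component of all 27 libraries, which held 24.3% of the variance, replicates 1 to 3 stood at 30.1, 5.11 and 53.6, against 58.2, 49.3 and 45.7 at 24 h. Thus replicate 3 at 12 h lay within the range of the 24 h libraries. Mitochondrial ribosomal RNA took 40.4% of the counts in replicate 1 at 24 h and 26.4% to 33.9% in the other 5 libraries. The part of these differences in the results below was not tested. As a check of the dissection, the cortical excitatory neuron genes summed to 3140 to 3593 CPM at 12 h and 2745 to 3243 CPM at 24 h. The striatal markers, from the tissue beneath, summed to 225 to 343 CPM at 12 h and 167 to 344 CPM at 24 h, so they were present in all 6 libraries.

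The genes that rose from 12 h to 24 h included Stat3, a transcription factor of astrocyte reactivity, Ifit1, an antiviral protein, and Fcgr1, a receptor for IgG. Those that fell included the co-chaperone Dnaja4, the cell death activator Hrk and Gpr17, a receptor of oligodendrocyte precursors. Of 18087 genes tested, 34 rose (0.188%) and 29 fell (0.16%) at a Benjamini-Hochberg adjusted p under 0.05 in edgeR's quasi-likelihood test. The rises were larger than the falls: 28 of the 34 and 5 of the 29 were at least 2-fold. At an unadjusted p under 0.05, 1397 genes (7.72%) were higher and 1242 (6.87%) were lower at 24 h, and the median log2 fold change of all genes was -0.01. The libraries of the 2 times did not overlap for 26 of the 34 rises and 28 of the 29 falls. Over all genes, 7.89% had all 3 libraries at 24 h above all 3 at 12 h, and 9.37% had them below. The 12 largest rises and 12 largest falls described below were picked among genes without overlap.

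**Figure D1:**
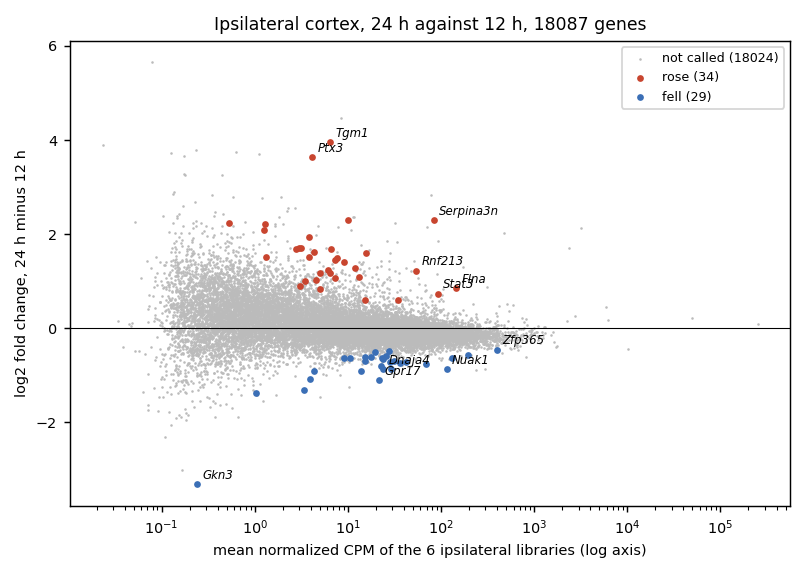
Each point is 1 of 18087 tested genes, with its mean normalized CPM over the 6 ipsilateral libraries (log axis) against its log2 fold change from 12 h to 24 h. The 34 genes that rose (red) reach 3.96 for Tgm1, and the 29 that fell (blue) reach -3.32 for Gkn3.

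These calls rested on single libraries. Without replicate 1 of 12 h, or without replicate 1 of 24 h, no gene passed. Without replicate 2, 5 genes rose and 25 fell when it was the 12 h library, and 12 rose and 13 fell when it was the 24 h library. Without replicate 3 of 12 h the counts were 249 and 71, and without replicate 3 of 24 h they were 403 and 137. Replicate 3 was the lowest 24 h library in 30 of the 34 rises and the highest 12 h library in 32 of them. With only the 6 compared libraries in the fit, no gene passed. All 63 genes kept their direction in each of these fits.

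**Figure D2:**
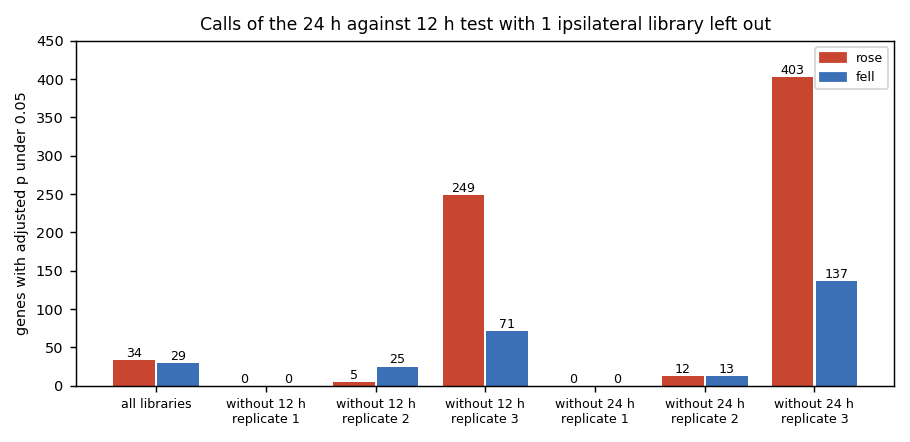
Bars count the genes with an adjusted p under 0.05 that rose (red) or fell (blue) with all libraries and with 1 ipsilateral library left out at a time. The counts are 34 and 29 with all libraries, 0 and 0 without replicate 1 of either time, and 403 and 137 without replicate 3 of 24 h.

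The promoters of 4 called genes are shown first, since they hold letters of the sites bound by interferon, STAT and heat shock factors. They are RefSeq windows of 300 bases (build GRCm38.p6), from 250 before to 50 after the start of transcription, printed 5′ to 3′ along the gene's strand. Capitals mark GAAANNGAA, the interferon-stimulated response element core, on either strand in Ifit1 (chr19:34640639-34640938, plus strand) and Eif2ak2 (chr17:78882523-78882822, minus strand). They mark TTCNNNGAA, the STAT site, in Fcgr1 (chr3:96293920-96294219, minus strand), and GAANNTTC, the heat shock element core, in Dnaja4 (chr9:54699309-54699608, plus strand).
Ifit1: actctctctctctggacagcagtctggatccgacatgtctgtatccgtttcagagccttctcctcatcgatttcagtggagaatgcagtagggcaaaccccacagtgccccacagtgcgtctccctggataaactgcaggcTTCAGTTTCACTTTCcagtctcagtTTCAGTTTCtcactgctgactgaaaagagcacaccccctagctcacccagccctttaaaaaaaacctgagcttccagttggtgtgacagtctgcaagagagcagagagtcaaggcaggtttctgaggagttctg
Eif2ak2: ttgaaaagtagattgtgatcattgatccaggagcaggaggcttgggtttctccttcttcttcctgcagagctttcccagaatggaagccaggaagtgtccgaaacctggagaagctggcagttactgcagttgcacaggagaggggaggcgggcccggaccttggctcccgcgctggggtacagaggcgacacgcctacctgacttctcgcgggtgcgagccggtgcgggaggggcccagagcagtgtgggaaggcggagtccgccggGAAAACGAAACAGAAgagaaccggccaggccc
Fcgr1: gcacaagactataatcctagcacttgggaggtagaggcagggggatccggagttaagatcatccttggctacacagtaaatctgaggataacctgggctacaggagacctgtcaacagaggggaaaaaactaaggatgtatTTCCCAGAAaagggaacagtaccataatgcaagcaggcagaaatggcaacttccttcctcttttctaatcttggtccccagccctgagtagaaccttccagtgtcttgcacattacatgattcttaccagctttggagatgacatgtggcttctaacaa
Dnaja4: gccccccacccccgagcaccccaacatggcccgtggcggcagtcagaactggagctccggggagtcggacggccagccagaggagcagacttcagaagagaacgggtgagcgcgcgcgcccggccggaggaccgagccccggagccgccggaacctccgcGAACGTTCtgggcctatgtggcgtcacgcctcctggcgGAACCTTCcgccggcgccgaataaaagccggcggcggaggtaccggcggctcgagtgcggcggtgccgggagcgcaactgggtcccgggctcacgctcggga
Ifit1 held 3 matches, of which the 2 farthest from the start overlap, and Eif2ak2 held 2 overlapping matches after its start. Dnaja4 had 2 RefSeq windows, and the 1 shown held 2 matches. Each window is capitalised for 1 motif: Eif2ak2 also held the STAT site letters TTCCCAGAA, and Fcgr1 also held GAACCTTC, the heat shock letters that Dnaja4 carries too. These 4 genes were chosen after the matches were seen.

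Of the 63 called genes, 45 had a window in the RefSeq table by symbol, and each motif was searched on both strands. Some genes had more than 1 window, and a gene counted when any of its windows held the motif. The interferon element core stood in 4 of 23 genes that rose and 2 of 22 that fell, against 8.63% of 12403 tested genes and 9.76% of 27025 genes in the table. The STAT site stood in 3 of 23 and 2 of 22, against 8.39% of tested genes and 9.55% of the table. The heat shock element core stood in 1 of 23 and 2 of 22, against 7.37% and 9.04%, and the AP-1 site TGANTCA in 0 of 23 and 1 of 22, against 6.71% and 8.97%. These are matches of letters, not binding sites.

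Of 26 tested reactive astrocyte genes 4 rose, against 0.188% of all genes, and none fell. At an unadjusted p under 0.05, 21 were higher, against 7.72% of all genes, and the list's median log2 fold change was 1.19. The list's values depended on single libraries: without replicate 1 of 24 h none rose, 11 were higher and the median was 0.62. No member rose without replicate 1 or 2 of 12 h, and 1 did without replicate 2 of 24 h. Without replicate 3, 12 rose when it was the 12 h library and 15 when it was the 24 h library. Stat3, the transcription factor of the interleukin 6 pathway, was at 66.9, 60.6 and 79.0 CPM at 12 h and at 137, 118 and 89.1 CPM at 24 h. The 2 times did not overlap, and the rise was 0.74 ± 0.14 (log2, SE; edgeR adjusted p = 0.0198). Serpina3n, a secreted protease inhibitor of reactive astrocytes, was at 21.5, 24.6 and 38.2 CPM at 12 h and at 230, 146 and 38 CPM at 24 h. Replicates 1 and 2 at 24 h stood far above 12 h, while replicate 3 lay level with the highest 12 h library. In GENCODE M21 (GRCm38) Stat3 lies on chr11:100885098-100939540, minus strand, and Serpina3n on chr12:104406729-104414329, plus strand.

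The long pentraxin Ptx3, an opsonin, had 10, 22 and 48 counts at 12 h and 568, 247 and 30 at 24 h. The transglutaminase Tgm1, which cross-links proteins, had 24, 18 and 60 counts at 12 h and 993, 279 and 51 at 24 h. Both rose in the main test, yet replicate 3 at 24 h lay among the 12 h libraries. With the surgery day as a block the edgeR adjusted p was 0.0926 for Ptx3 and 0.0842 for Tgm1. Gfap, the filament protein of astrocytes, was at 190, 253 and 222 CPM at 12 h and 587, 418 and 218 CPM at 24 h. Its change of 0.88 ± 0.27 (log2, SE) did not pass (edgeR adjusted p = 0.137). With 1 ipsilateral library left out it ranged from 0.00628, without replicate 3 of 24 h, to 0.675, without replicate 1 of 24 h, and the first was the 1 of these 6 fits in which Gfap passed. The summed level of the list was 453, 514 and 608 CPM at 12 h and 1640, 1078 and 570 CPM at 24 h, against 224 to 238 CPM in sham, so the same replicate overlapped.

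Of 29 tested interferon-stimulated genes 1 rose and 19 were higher at an unadjusted p under 0.05, with a median of 0.86. All 24 h libraries stood above all 12 h libraries in 13 of them. Over all genes these shares were 0.188%, 7.72% and 7.89%. Ifit1, an antiviral RNA-binding protein, was at 0.87, 1.37 and 1.76 CPM at 12 h and 5.19, 3.27 and 4.37 CPM at 24 h, without overlap (1.68 ± 0.30 log2, SE; edgeR adjusted p = 0.0185). Its contralateral step was -0.15. Of 14 interferon-induced GTPases none passed, while 10 were higher at an unadjusted p under 0.05 and 9 did not overlap, with a median of 0.85. DESeq2 called 11 members of the first list and 6 of the second, against 1.37% of all genes as higher by that tool. In edgeR, no member of either list rose without replicate 1 of 12 h or of 24 h. Without replicate 3 of 12 h, 9 and 3 rose, and without replicate 3 of 24 h, 10 and 5 rose. Without replicate 2 of 24 h, 2 of the first list rose.

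Rnf213, Eif2ak2 and Parp14 stand on none of the lists and were among the 12 largest rises. Rnf213, a giant ubiquitin ligase, was at 28.8, 25.2 and 43.5 CPM at 12 h and 108, 67.5 and 52.7 CPM at 24 h (1.23 ± 0.20 log2, SE; edgeR adjusted p = 0.0160). Eif2ak2, the kinase PKR that senses double-stranded RNA, was at 2.61, 2.77 and 3.54 CPM at 12 h and 7.86, 5.89 and 4.43 CPM at 24 h. Parp14, an ADP-ribosyltransferase, was at 4.23, 2.26 and 5.18 CPM and then 11, 7.95 and 7.57 CPM. In all 3, replicate 1 was the highest library at 24 h. Nlrc5, an activator of MHC class I genes, rose by 1.70. It was the 1 called member of 19 antigen presentation genes, against 0.188% of all genes. The list's median was 0.21 (-0.02 without replicate 1 of 24 h and 0.45 without replicate 3 of 24 h, where 2 rose).

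Fcgr1, Tlr13 and Csf2rb, which are on no list either, were also among the 12 largest rises. Fcgr1, a high-affinity receptor for IgG, was at 2.99, 2.55 and 3.74 CPM at 12 h and 8.95, 7.62 and 4.35 CPM at 24 h. Tlr13, a sensor of bacterial ribosomal RNA, was at 3.22, 3.21 and 5.36 CPM and then 18.1, 7.09 and 7.11 CPM. Csf2rb, the shared receptor chain for GM-CSF and interleukins 3 and 5, was at 1.82, 1.10 and 3.49 CPM and then 10.1, 5.78 and 4.01 CPM. Replicate 1 was the highest of the 24 h libraries in each. Cd72, an inhibitory receptor of B cells that macrophages can also express, was at 1.4, 0.564 and 2.70 CPM and then 9.92, 5.86 and 2.28 CPM, so replicate 3 overlapped. Pycard, the adaptor of inflammasomes, rose by 0.84 (edgeR adjusted p = 0.0478, and 0.0535 with the surgery day as a block). It was the 1 called member of 17 interleukin 1 and TNF genes, against 0.188% of all genes. The list's median was 0.80, or 0.42 without replicate 1 of 24 h.

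Of 25 tested genes of phagocyte activation and lipid handling 2 rose and 12 were higher at an unadjusted p under 0.05. The shares over all genes were 0.188% and 7.72%, and the list's median was 0.65. Without replicate 1 of 24 h none rose, 6 were higher and the median was 0.24, and without replicate 3 of 24 h 10 rose and 20 were higher. Without replicate 3 of 12 h 6 rose, and without replicate 1 or 2 of 12 h none did, against 1 without replicate 2 of 24 h. Plin2, which coats lipid droplets, was at 6.77, 5.69 and 10.7 CPM at 12 h and 40.6, 18.4 and 11.6 CPM at 24 h. Msr1, a scavenger receptor of macrophages, was at 2.35, 1.91 and 5.85 CPM and then 29.5, 15.2 and 5.13 CPM, so replicate 3 overlapped. With the surgery day as a block neither passed (edgeR adjusted p = 0.0528 and 0.0787). Markers of neutrophils and of monocytes and border macrophages had no call. Of 14 neutrophil markers 3 were higher at an unadjusted p under 0.05 (median 0.98). Of 14 monocyte and border macrophage markers 4 were (median 0.80). Without replicate 1 of 24 h these medians were 0.32 and 0.17, and without replicate 3 of 12 h they were 1.59 and 1.21, with 1 call in each list. The neutrophil markers summed to 7.12, 7.78 and 15.6 CPM at 12 h and 29.3, 14.1 and 8.69 CPM at 24 h. The monocyte and border macrophage markers summed to 38.2 to 42.3 CPM at 12 h and 30.9 to 61.2 CPM at 24 h. The homeostatic microglia genes had a median of 0.02 over 23 members. At an unadjusted p under 0.05, 1 was higher and 4 were lower, against 7.72% and 6.87% of all genes. The part of these cells in the rises was not tested.

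Angptl4 and Angpt2 were the 2 called of 18 VEGF, angiopoietin and tip cell genes, whose median was 0.39 (0.01 without replicate 1 of 24 h and 0.25 without replicate 1 of 12 h). Of 22 blood-brain barrier and endothelial genes none was called, 5 were higher and 4 lower at an unadjusted p under 0.05, and the median was -0.01. Over all genes 0.188% rose, and 7.72% were higher and 6.87% lower at an unadjusted p under 0.05. Angptl4, an inhibitor of lipoprotein lipase, was at 2.89, 3.56 and 5.57 CPM at 12 h and 13.4, 7.65 and 12.9 CPM at 24 h. Its contralateral step was 1.09. Angpt2, an antagonist of the TIE2 receptor of endothelium, was at 2.55, 2.58 and 5.82 CPM and then 12.5, 7.26 and 6.19 CPM (edgeR adjusted p = 0.0478, and 0.0519 with the block). The highest 24 h library of both was replicate 1. Rhoj, a small GTPase of endothelial cells, was at 3.88, 4.27 and 6.82 CPM at 12 h and 20.4, 11.6 and 7.73 CPM at 24 h. Slc14a1, a urea transporter, was at 7.54, 5.69 and 7.70 CPM and then 23.2, 16.8 and 10.8 CPM. Dysf, a protein of membrane repair, was at 4.04, 3.53 and 6.29 CPM and then 12.6, 8.79 and 7.95 CPM. The actin cross-linker Flna went from 94.2, 103 and 111 CPM to 252, 170 and 134 CPM. In these 4 as well, replicate 1 was the highest and replicate 3 the lowest library at 24 h.

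**Figure D3:**
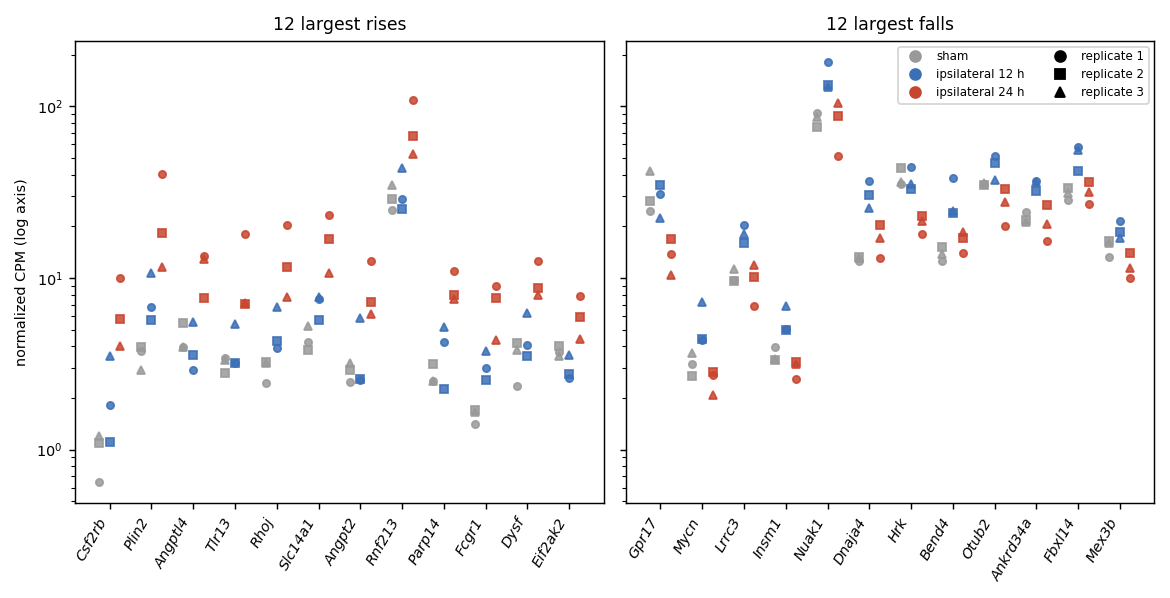
Each point is the normalized CPM (log axis) of 1 library in sham (grey), 12 h (blue) or 24 h (red) ipsilateral cortex, with 1 marker shape per replicate number. The 12 rises and 12 falls were chosen for not overlapping between 12 h and 24 h, and for several rises the lowest red and highest blue points are close, as for Plin2 at 11.6 and 10.7 CPM.

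The genes that fell changed less, with a median log2 fold change of -0.72 against 1.48 for those that rose. Dnaja4, a co-chaperone of HSP70, was at 36.7, 30.3 and 25.4 CPM at 12 h and 13, 20.5 and 17.1 CPM at 24 h, against 13 ± 0.38 CPM (SD, n = 3) in sham. It fell by 0.87 on the log2 scale (SE 0.16; edgeR adjusted p = 0.0194). Dnaja4 is not on the list of cytosolic heat shock chaperones, of whose 20 members none passed. At an unadjusted p under 0.05, 12 of them were lower, against 6.87% of all genes, and the list's median was -0.39. The 12 became 3 without replicate 1 of 12 h or of 24 h, and the median was -0.21 without the latter, while 4 members fell without replicate 3 of 12 h and 2 without replicate 3 of 24 h. That list summed to 8373, 6531 and 6032 CPM at 12 h and 4028, 5999 and 5906 CPM at 24 h, still above the 3220 to 3671 CPM of sham. Hspa1a, an inducible HSP70, was at 209, 83.6 and 251 CPM at 12 h and 80.8, 180 and 143 CPM at 24 h, and its change of -0.43 did not pass (edgeR adjusted p = 0.544).

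Nuak1, Spry4 and Hrk were also among the 0.16% of all genes that fell. Nuak1, a kinase related to AMPK that acts in axon branching, was at 182, 134 and 130 CPM at 12 h and 51.4, 87.3 and 105 CPM at 24 h. Spry4, a feedback inhibitor of ERK signalling, was at 24.3, 17.2 and 22.0 CPM and then 13.8, 16.0 and 11.8 CPM, the 1 called of 12 ERK feedback regulators (median -0.27, or -0.13 without replicate 1 of 24 h and -0.17 without replicate 1 of 12 h). Hrk, a BH3-only activator of cell death, was at 44.5, 33.1 and 35.1 CPM and then 18.1, 22.8 and 21.4 CPM. It was the 1 called of 23 BCL2 family and cell death genes, whose median was 0.11 (0.01 without replicate 3 of 24 h). In Nuak1 replicate 1 was the lowest 24 h library, and in Spry4 replicate 3 was.

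Mycn, Insm1, Gpr17 and Vtn fell as well, where 0.16% of all genes fell. Mycn, a MYC family transcription factor, was at 4.35, 4.42 and 7.28 CPM at 12 h and 2.72, 2.85 and 2.08 CPM at 24 h. Insm1, a zinc finger factor of neural progenitors, was at 5.02, 4.96 and 6.84 CPM and then 2.58, 3.24 and 3.16 CPM. Gpr17, a receptor of oligodendrocyte precursors that are about to differentiate, was at 31.0, 34.8 and 22.3 CPM and then 13.8, 17.0 and 10.4 CPM. It was the 1 called of 14 oligodendrocyte precursor genes (median -0.02), and its contralateral step was -0.64. Vtn, the adhesion protein vitronectin made in brain by pericytes, was at 37.5, 43.3 and 34.0 CPM and then 20.1, 25.2 and 25.8 CPM. It was the 1 called of 16 mural cell and fibroblast markers (median -0.03), and its contralateral step was -0.40.

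Fbxl14, Otub2 and Mex3b were further falls among the 12 largest. Fbxl14, a substrate receptor of a ubiquitin ligase, was at 57.9, 42.2 and 55.5 CPM at 12 h and 26.9, 36.0 and 31.7 CPM at 24 h. Otub2, a deubiquitinase, was at 51.2, 46.6 and 37.0 CPM and then 20.0, 33.0 and 27.7 CPM. Mex3b, an RNA-binding ubiquitin ligase, was at 21.5, 18.5 and 17.1 CPM and then 9.94, 14 and 11.4 CPM. Lrrc3, Bend4 and Ankrd34a fell by 0.90, 0.81 and 0.72 on the log2 scale. The largest fall by size, Gkn3, rested on 20, 18 and 20 counts at 12 h and 1, 2 and 2 counts at 24 h, and is named after its values were seen. Its contralateral counts were lower at 24 h too, at 30, 20 and 16 and then 10, 11 and 8.

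Set against sham, the means of all 34 genes that rose were above sham at 24 h, and 26 of them were already above it at 12 h. Of the 29 that fell, 22 had a 12 h mean above sham and 7 had a 24 h mean above it. Since the genes were called on their 24 h values, these counts only describe where they stood.

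Excitatory neuron, presynaptic and nuclear-encoded oxidative phosphorylation lists had small negative medians and no member that passed. Over all genes the median was -0.01, and 6.87% were lower at an unadjusted p under 0.05. Excitatory neuron identity genes had 21 of 23 members below 0, with a median of -0.24 and 6 lower at an unadjusted p under 0.05, or 2 without replicate 1 of 24 h and 3 without replicate 2 or 3 of 12 h, where in the latter 1 fell. Presynaptic vesicle and release genes had 23 of 24 below 0 (median -0.18), and 7 were lower at an unadjusted p under 0.05. The 7 became 2 without replicate 1 of 24 h or replicate 2 of 12 h. Of this list, 2 fell without replicate 3 of 24 h and 1 without replicate 3 of 12 h. All 35 nuclear-encoded subunits of oxidative phosphorylation were below 0 (median -0.16). Of these, 3 were lower at an unadjusted p under 0.05, near the share over all genes. The mitochondrially encoded transcripts had a median of 0.50 over 15 members, which was -0.01 without replicate 1 of 24 h, the library with 40.4% mitochondrial ribosomal RNA. The 21 cholesterol synthesis genes had a median of 0.16 (0.05 without replicate 1 of 24 h and 0.08 without replicate 2 of 12 h). None was called, and 5 were higher at an unadjusted p under 0.05, against 7.72% of all genes. Cytosolic ribosomal proteins had a median of 0.00 over 40.

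Glutamate handling, named in the title of the series, had no call among its 18 genes (median -0.12). Slc1a2, the main glutamate transporter of astrocytes, changed by 0.26 ± 0.14 (log2, SE; edgeR adjusted p = 0.411), Slc1a3 by 0.14 ± 0.14 (adjusted p = 0.699) and Glul, which makes glutamine, by -0.13 ± 0.11 (adjusted p = 0.641). The immediate early gene Fos was at 11.5, 8.68 and 32.8 CPM at 12 h and 55.8, 36.8 and 20.1 CPM at 24 h and did not pass (edgeR adjusted p = 0.361). Its contralateral step, 2.11 ± 0.57 (log2, SE), was larger than its ipsilateral step of 1.08 ± 0.53 and did not pass either. The contralateral means of Fos were 5.41 CPM at 12 h and 23.5 CPM at 24 h, both below the sham mean of 33.9 CPM.

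**Figure D4:**
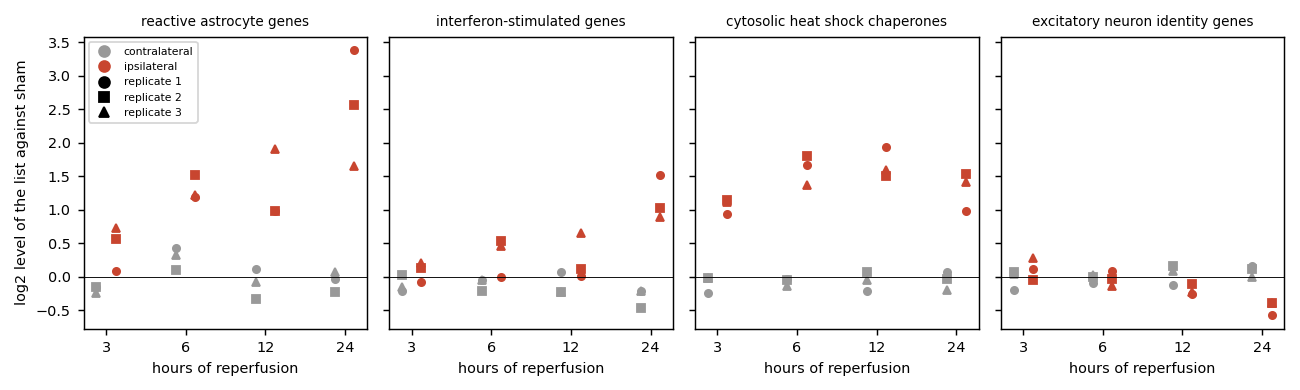
Points are the mean over a list's members of log2 CPM minus the sham mean, for each library by hours of reperfusion, in ipsilateral (red) and contralateral (grey) cortex. In the reactive astrocyte list the ipsilateral 24 h replicates stand at 3.38, 2.56 and 1.66 and the 12 h replicates at 0.98, 0.98 and 1.90.

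In the contralateral cortex the same interval gave no call (0%) in edgeR's test, where 653 genes had an unadjusted p under 0.05 and DESeq2 called 4 (0.0221%). The 26 immediate early genes had a contralateral median of 0.64, with 12 at an unadjusted p under 0.05, against an ipsilateral median of 0.17. This contralateral step began below sham. The list's mean log2 level against sham was -0.83, -0.85 and -1.33 at 12 h and -0.26, 0.04 and -0.63 at 24 h on that side. The 34 genes that rose on the ipsilateral side had a median contralateral step of 0.17, and 22 of them had the same sign. The 29 that fell had a median contralateral step of -0.03, and 18 had the same sign. The difference between the hemispheres' steps was tested directly and passed for no gene (0%), with 1444 at an unadjusted p under 0.05 and 13 called by DESeq2 (0.0748%). It is therefore not shown that any of these changes was particular to the injured side.

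**Figure D5:**
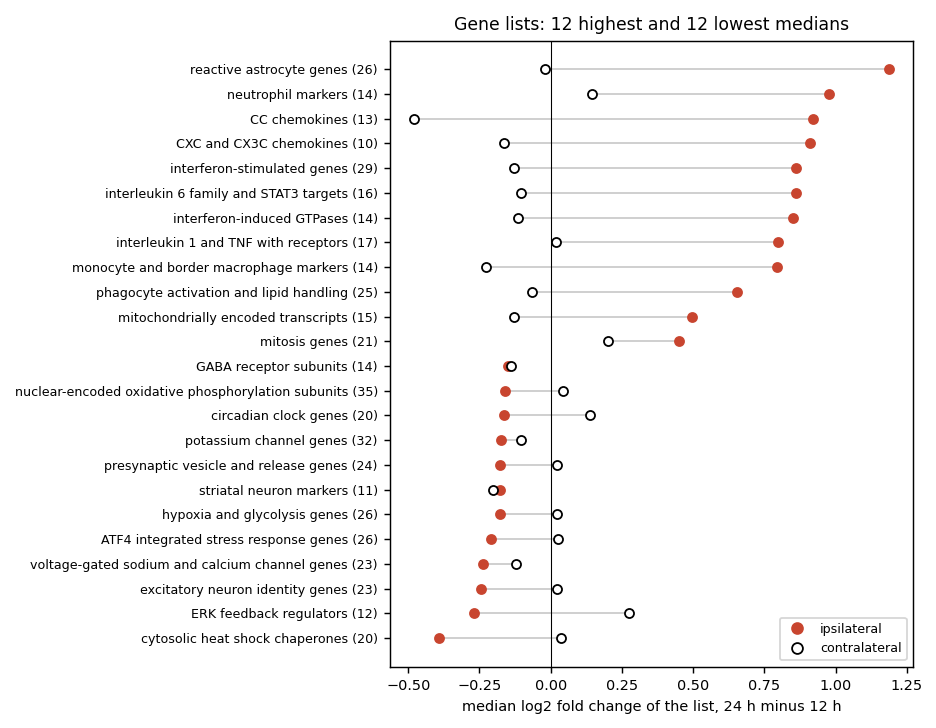
Points are the median log2 fold change from 12 h to 24 h of the 12 lists with the highest and the 12 with the lowest ipsilateral medians, on the ipsilateral (red) and contralateral (open) side, with the number of tested members in brackets. The reactive astrocyte list stands at 1.19 and -0.02, and the heat shock chaperones stand at -0.39 and 0.04.

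The smallest adjusted p of that difference was 0.126, for Spry4, whose ipsilateral step was lower than the contralateral one by a log2 difference of -1.02 (95% interval -1.41 to -0.64). Spry4 was at 7.78, 9.22 and 8.68 CPM at 12 h and 11.6, 11.1 and 11.5 CPM at 24 h on the contralateral side. Arc, a synaptic immediate early gene, was at 445, 287 and 423 CPM at 12 h and 117, 258 and 262 CPM at 24 h on the ipsilateral side, and at 47.3, 59.7 and 34.5 CPM and then 138, 170 and 99.1 CPM on the other. The sham means were 16.4 CPM for Spry4 and 233 CPM for Arc, above the contralateral values at both times. For Usp18, which restrains interferon signalling, the difference was 2.20 (95% interval 1.17 to 3.23; edgeR adjusted p = 0.317).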

How the data were processed

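RNA of cortex was depleted of ribosomal RNA and sequenced, per the labels' protocols. The deposited values are raw counts per gene, made by the authors with STAR 2.5.0a and featureCounts 1.4.3-p1 on mm10, per the submitters' processing notes. The sources used here name no annotation or strand setting, so overlapping genes cannot be told apart. Genes passing filterByExpr (minimum count 10, total 15; 18087 of 22340) were scaled by TMM and fitted over 27 libraries in 9 groups with edgeR 4.0.16 (robust quasi-likelihood, R 4.3.3), without a block, and p-values were adjusted over all tested genes by Benjamini-Hochberg. DESeq2 1.42.0 was an alternative. On simulated data with the same spread for every gene, the fit called all 4-fold changes but missed part of the 2-fold ones. It also called some unchanged genes. The simulated replicates lacked differences like those on the first principal component, so the real counts of missed or false calls are not known from it. Replicate numbers mark surgery days, per the series' design text. Deviations of same-numbered ipsilateral libraries correlated at -0.11, 0.17 and -0.11. Over all groups the mean correlation was 0.047 for 108 same-numbered pairs and -0.024 for 216 other pairs. The gene lists and the rule for named genes (the 12 largest rises and falls with a mean of at least 5 CPM and no overlap, up to 4 called genes per list, 5 per direction for the difference, and 6 followed genes) were chosen with earlier results of these data known. Gene positions are from GENCODE M21, matched by symbol for 22162 of 22340 rows. The edgeR p-values set each change against the spread within groups over all 27 libraries, not over the 6 compared libraries alone. That spread is between libraries.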

Additional observations from a re-analysis of the deposited data

How the results depend on the processing

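The number of calls moved with the processing, while the 63 called genes kept their direction in every fit that tested them. For rises and falls, DESeq2 gave 224 and 144, and a fit of only the compared groups gave 0 and 0. Leaving out 1 ipsilateral library gave 0 to 403 rises and 0 to 137 falls. The replicate block gave 26 and 33, of which 22 and 28 were among the main calls. Alternatives chosen after seeing the data gave 78 and 91 with a GC correction, 101 and 142 with a GC correction and the replicate block, and 79 and 124 without contralateral 3 h library 1. The difference between hemispheres had 13 calls by DESeq2, 2 without contralateral 3 h library 1, and 0 to 35 when 1 library was left out (35 without replicate 3 of ipsilateral 24 h). The contralateral step had 4 by DESeq2. For Slc1a3, leaving out 1 library gave -0.077 to 0.25, with the reversed sign without replicate 1 of ipsilateral 24 h. The cause was not tested. With 3 libraries a group, 2-fold changes can be missed.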
